A study of Mus musculus with 6 samples.

Results

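The genes described here were 10 ligands in the BMP and activin branches of the TGF-β superfamily, namely Bmp2, Bmp4, Bmp5, Bmp6, Bmp7, Bmp10, Gdf6, Gdf10, Inhba and Inhbb. They were chosen by name from the 23107 genes of the deposited count table, and all 10 were found in it. The table holds aortic valve RNA of outbred mice aged 4 months, in 3 control and 3 mutant libraries. The mutants (caAcvr1:Nfatc1Cre) carried an Acvr1 transgene whose product is always active once Cre has switched it on, together with the Nfatc1Cre knock-in allele. The labels call the controls wild type. The study's methods allow controls with Nfatc1Cre alone, with caAcvr1 alone or with neither, and do not say which of these were sequenced. The Cre cassette sits in the Nfatc1 locus, and the study describes recombination in the endocardium and in the cushion mesenchyme that derives from it. It also describes recombination in interstitial cells and at the leaflet–wall junction, but not in myocardium or smooth muscle. Sex and the number of mice per library are not given in the sources used here, so the p-values below measure the spread between these libraries, which may be partly technical.

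BMPs and activins are secreted as dimers, after a proprotein convertase has cut the mature ligand from its precursor. A dimer brings together type II and type I receptors at the cell surface. The type I receptors Acvr1, Bmpr1a, Bmpr1b and Acvrl1 then pass the BMP signal to Smad1, Smad5 and Smad9, while activins act mainly through Acvr1b and Smad2 and Smad3. Secreted binding proteins such as noggin and follistatin hold ligands away from the receptors. In the embryonic heart, BMP signals drive the change of endocardial cells into cushion mesenchyme, from which much of the valve forms. Since the caAcvr1 receptor signals without ligand, the question for these 10 genes was whether the ligand transcripts themselves differed between the adult mutant and control valves.

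The libraries held 32218343 to 55728854 fragments, and a gene with no count could still have had up to 0.0538 to 0.0931 CPM, the worth of 3 counts. This limit covers counting error only. Levels are given as CPM, counts scaled by library size after TMM normalization, and group levels as the mean ± SD of 3 libraries. Fold changes are on the log2 scale, mutants against controls, with their standard errors (SE). Acvr1 itself is listed once, and whether transcripts of the transgene are counted in it is not given in the sources used here. It was read at 49.1, 60.5 and 67.4 CPM in controls 1, 2 and 3 and at 56.5, 57.9 and 49.9 CPM in mutants 1, 2 and 3. Col1a1, Dcn and Postn, markers of valve interstitial cells and of fibroblasts, were each at 987 CPM or more in every library. They do not tell valve tissue from fibroblasts of adjoining tissue. Muscle was represented as well, with summed cardiac muscle markers of 8334 to 32615 CPM and summed smooth muscle markers of 3855 to 14138 CPM. Control replicate 2 stood apart. It had the lowest cardiac sum and the highest smooth muscle sum, and its 6 mesothelial and epicardial markers summed to 1259 CPM against 119 to 543 CPM elsewhere. Fold changes that are printed below and rest on this library are therefore given with and without it. In bulk tissue, fewer cells of a type and less RNA per cell cannot be told apart.

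Of the 10 ligands, 9 were expressed at a level that could be tested, and none of the 9 passed the threshold in the mutants. These 9 had at least 18 counts in every library, so that none was tested only through the group in which it was high, and Bmp10 fell under the minimum of 10 counts in 3 libraries. The edgeR quasi-likelihood test called 0 of 9 members at an adjusted p under 0.05, and it called 0 of 15354 genes (0%). DESeq2 called 0 of 9 members, against 0.169% of all genes. At an unadjusted p under 0.05, edgeR had 3 members, against 3.45% of all genes. Of these Inhbb was higher (1.59% of all genes) and Bmp6 and Gdf6 were lower (1.86% of all genes) in the mutants. DESeq2 had 4 members, against 4.45%. The adjusted p of every one of the 9 in edgeR was 0.999. In 1 member, Inhbb, every mutant lay above every control, which held for 4.04% of all genes. In 0 members did every mutant lie below every control, against 4.83% of all genes. The median log2 fold change of the 9, mutants against controls, was -0.36, with 6 lower and 3 higher, beside a median of 0.0097 over all genes tested. Without control replicate 2 it was -0.11, with 5 lower and 4 higher, beside 0.0023 over all genes tested. Inhbb was then the single member at an unadjusted p under 0.05, against 2.79% of all genes, and the single one higher in every mutant, against 8.37%.

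**Figure D1:**
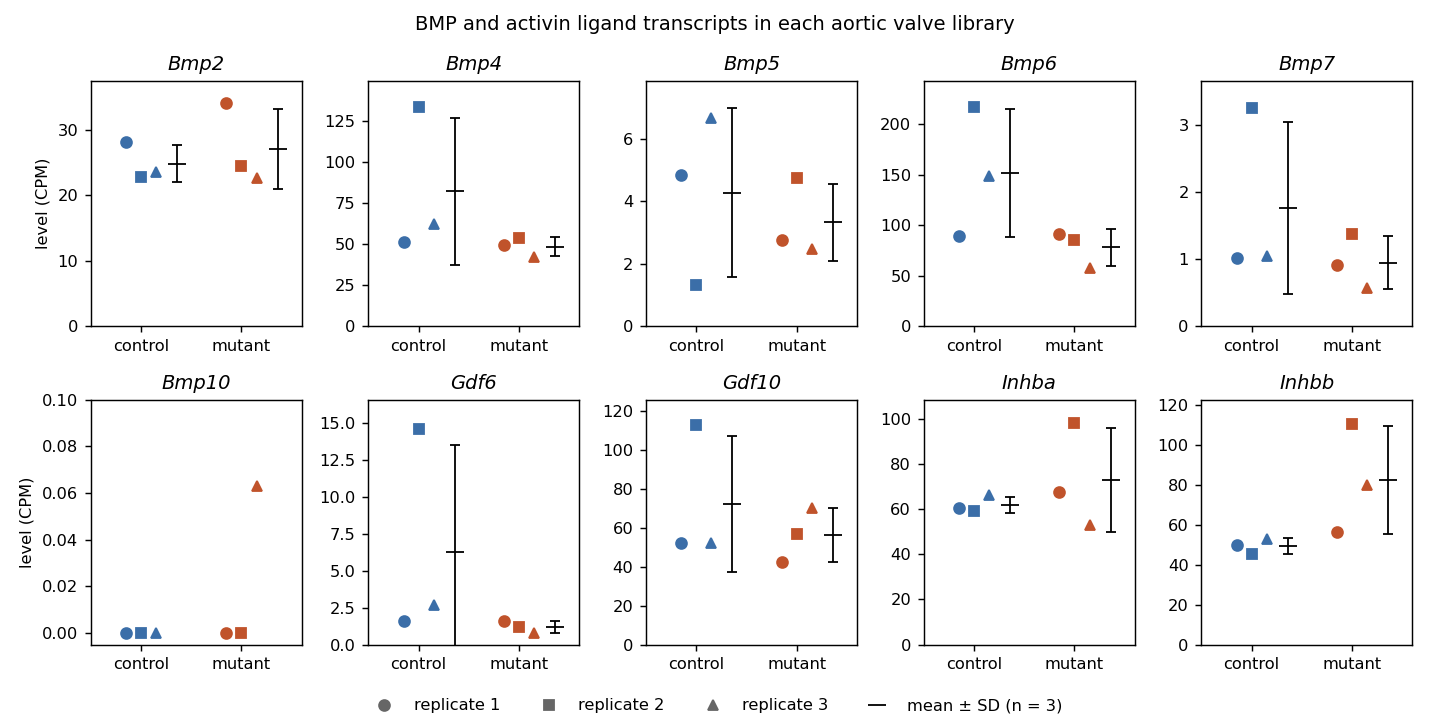
Level in CPM (vertical axes, from 0 except for a small margin in the Bmp10 panel) of each of the 10 ligands in the 3 control (blue) and 3 mutant (orange) libraries, with one marker shape per replicate number and bars for the mean ± SD (n = 3; the lower Gdf6 bar runs below 0, and Bmp10 has no bar). Control replicate 2 (square) is the highest library for Bmp4, Bmp6, Bmp7, Gdf6 and Gdf10, and for Inhbb all 3 mutants, from 56.5 to 111 CPM, lie above all 3 controls.

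Bmp2 and Bmp4 are close relatives, both strong inducers of bone and cartilage, and both act in endocardial cushion formation. Bmp2 (chromosome 2 of GRCm38, 133552159 to 133562885) was read at 28.1, 22.9 and 23.5 CPM in controls 1, 2 and 3 and at 34.0, 24.5 and 22.6 CPM in mutants 1, 2 and 3. The groups overlapped, and the highest Bmp2 library, mutant replicate 1, was 1.51 times the lowest, the narrowest spread of the 9 members tested. Its log2 fold change was 0.13 (SE 0.18, 95% interval -0.30 to 0.56). The direction rested on mutant replicate 1, without which it was -0.075, and with the cardiac muscle marker score as a covariate it was 0.051. Bmp4 (chromosome 14, 46383520 to 46390669) was read at 51.0, 134 and 62.0 CPM in the controls and at 49.3, 53.7 and 42.0 CPM in the mutants. Here a single control was more than 2 times every other library, and the remaining controls overlapped with the mutants. The fit for Bmp4 gave a log2 fold change of -0.77 (SE 0.35, 95% interval -1.60 to 0.06), and without control replicate 2 it was -0.22 (SE 0.15). With the cardiac muscle marker score as a covariate it was -0.41. The within-library ratio of Bmp2 to Bmp4, per length of exon, was 0.232 ± 0.120 across controls and 0.355 ± 0.0746 across mutants, with overlapping groups. Control replicate 2 lowered the control mean, with ratios of 0.348, 0.108 and 0.240 in controls 1, 2 and 3. The mutants were at 0.436, 0.289 and 0.341.

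Bmp5, Bmp6 and Bmp7 form a subgroup of the BMPs for which Acvr1 is a main type I receptor. Bmp6, which in the adult is also known for its part in iron balance, lies on chromosome 13 from 38345107 to 38500302. It was read at 89.6, 217 and 148 CPM in controls 1, 2 and 3 and at 90.9, 85.8 and 57.4 CPM in mutants 1, 2 and 3. A pair of controls lay above all mutants, and control replicate 1 lay within the mutant range, just below mutant replicate 1. The log2 fold change of Bmp6 was -0.96 (SE 0.33, 95% interval -1.74 to -0.18), that is 0.515 times the control level, with an unadjusted p of 0.0225 in edgeR. Without control replicate 2 it was -0.60 (SE 0.27), and with the cardiac muscle marker score as a covariate it was -0.72. Its last exon shares 224 bases, 5.74% of the Bmp6 exon length, with Txndc5 on the opposite strand. A strand-specific count is not stated, so fragments in that stretch cannot be assigned with certainty. Txndc5 was read at 283 to 375 CPM, with a log2 fold change of -0.19 (SE 0.12).

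Bmp5 and Bmp7 were low. Bmp5 (chromosome 9, 75775364 to 75900310) was read at 4.85, 1.33 and 6.65 CPM in the controls, from 67 to 306 counts, and at 2.76, 4.73 and 2.48 CPM in the mutants, from 79 to 187 counts. It differed from its neighbours in the table in that control replicate 2 was its lowest library rather than its highest. Its log2 fold change was -0.36 (SE 0.57). Without control replicate 2 that was -0.79 (SE 0.37) and every mutant lay below both remaining controls, a separation that 8.43% of all genes showed in this direction without that library. Without control replicate 3 the direction of Bmp5 turned, to 0.11. The antisense gene Gm26903 covers 46.7% of the Bmp5 exon length, so part of this count may belong to it. Bmp7, also a strong inducer of bone (chromosome 2, 172868012 to 172940321), was read at 1.01, 3.24 and 1.04 CPM in the controls and 0.907, 1.37 and 0.565 CPM in the mutants, from 18 to 164 counts per library. Its groups overlapped. For Bmp7 the fit gave -0.89 (SE 0.60), and -0.11 without control replicate 2 and -0.37 with the cardiac covariate.

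Bmp10 is a ligand of Acvrl1 that acts in the growth of the ventricular trabeculae of the embryo and in the adult heart is made mainly by atrial muscle. It lies on chromosome 6 from 87428994 to 87437677 and had 0 counts in 5 of the 6 libraries and 2 counts in mutant replicate 3, which is within the limit that a count of 0 allows. Atrial genes were nevertheless abundant. Myl7, the atrial light chain of myosin, was read at 866 to 4429 CPM and Nppa, the atrial natriuretic peptide, at 1501 to 12343 CPM. Bmp10 transcripts were thus not detectable at this depth in libraries that held atrial muscle RNA, and no fold change is given.

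Gdf6 and Gdf10 belong to the growth and differentiation factors, with Gdf6 known for its part in joint formation and Gdf10 a relative of Bmp3. Gdf6 (chromosome 4, 9844372 to 9862345) was read at 1.57, 14.6 and 2.65 CPM in controls 1, 2 and 3 and at 1.58, 1.19 and 0.753 CPM in mutants 1, 2 and 3. In counts these were 84, 739 and 122 in the controls and 82, 47 and 24 in the mutants. Its highest library was 19.4 times its lowest, the widest spread of the 9 members tested, and control replicate 1 lay within the mutant range. For Gdf6 the fit gave -2.40 (SE 0.86, 95% interval -4.44 to -0.37, unadjusted p of 0.0267 in edgeR). It rested largely on control replicate 2, without which it was -0.83 (SE 0.47), and it was -1.16 with the cardiac muscle marker score as a covariate. Gdf10 (chromosome 14, 33923587 to 33937983) was read at 52.2, 113 and 52.2 CPM in the controls and 42.2, 56.6 and 70.1 CPM in the mutants. Its groups overlapped, and its log2 fold change of -0.36 (SE 0.34) turned to 0.11 without control replicate 2 and was -0.067 with the cardiac covariate.

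Control replicate 2 was the highest of the 6 libraries for 5 of the 9 ligands tested, against 24.4% of all genes, and the lowest for 2 (Bmp5 and Inhbb), against 24.9%. It was over 2 times both other controls for 4 of them (Bmp4, Bmp7, Gdf6 and Gdf10), against 3.09% of all genes, and under 0.5 times both other controls for 1 (Bmp5), against 4.53%. In the 6 mesothelial and epicardial markers the same library was read at 1259 CPM in sum, and the other controls at 119 and 228 CPM. The mutants were at 145, 386 and 543 CPM in these markers, and mutant replicate 3, with the next highest sum, had the lowest Bmp4, Bmp6, Bmp7 and Gdf6 levels of all. The part of these tissues in the ligand levels was not tested. Mutant replicate 3, the library with the lowest total, was the lowest of the 6 for 6 of the 9 ligands, against 17.0% of all genes.

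**Figure D2:**
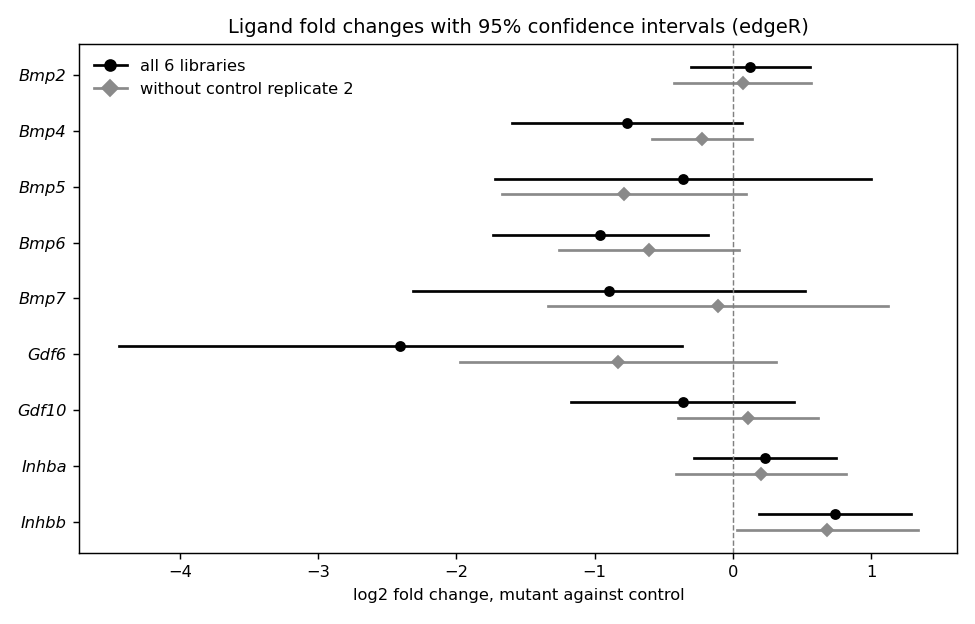
Log2 fold change of each tested ligand, mutant against control (horizontal axis; points, with 95% confidence intervals as lines), from edgeR on all 6 libraries (black circles) and without control replicate 2 (grey diamonds). Gdf6 moves from -2.40 to -0.83 and Bmp4 from -0.77 to -0.22 when that library is left out, while Inhbb stays near 0.7.

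Activins are dimers of the inhibin β subunits, of which Inhba encodes βA and Inhbb βB, and a β subunit joined to the α subunit (Inha) makes an inhibin, which opposes activin. Activin A, the βA dimer, binds wild-type Acvr1 without activating BMP Smads. Inhba (chromosome 13, 16011851 to 16031621) was read at 60.8, 59.3 and 66.2 CPM in the controls and at 67.7, 98.3 and 52.9 CPM in the mutants. The controls lay close together, with an SD of 5.85% of their mean, and the mutants lay on both sides of them, with 31.7%. For Inhba the log2 fold change was 0.23 (SE 0.22, 95% interval -0.28 to 0.745), and without mutant replicate 2, its highest library, it turned to -0.04.

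Inhbb (chromosome 1, 119415465 to 119422248) was read at 49.95, 45.2 and 52.9 CPM in controls 1, 2 and 3 and at 56.5, 111 and 80.0 CPM in mutants 1, 2 and 3. The controls were again close, with an SD of 7.90% of their mean, and all 3 mutants were higher, mutant replicate 1 by little, while mutant replicate 2 stood at more than 2 times the control mean. The log2 fold change was 0.74 (SE 0.23, 95% interval 0.19 to 1.29), or 1.67 times the control level, with an unadjusted p of 0.0155 in edgeR. Adjusted over all genes, the p of Inhbb was 0.999 in edgeR and 0.425 in DESeq2, and an exact permutation test of its log2 CPM gave a two-sided p of 0.1, the smallest that 3 against 3 allow. Leaving out control replicate 2 hardly moved it, to 0.68, whereas without mutant replicate 2 it was 0.47, and the fits that each left out a library ran from 0.47 to 0.95. All 7 macrophage markers had higher fitted values in the mutants, and 0 were called by edgeR. They summed to 702 to 815 CPM in the controls and 896 to 967 CPM in the mutants, 4 of them (against 4.04% of all genes) lay higher in every mutant, and none was at 0. The 6 B and plasma cell markers were all higher by their fitted values, with a median log2 fold change of 1.05. DESeq2 called 1 of them, against 0.169% of all genes, and edgeR called 0. They summed to 16.1, 5.81 and 4.85 CPM in the controls and 7.94, 37.4 and 20.9 CPM in the mutants, with overlapping groups. The 6 melanocyte markers were all higher too, at a median of 0.62, with overlapping sums of 174, 27.7 and 82.8 CPM in the controls and 198, 106 and 82.9 CPM in the mutants. With control replicate 2 left out, 5 of the 6 B and plasma cell markers and 4 of the 6 melanocyte markers were higher, with medians of 0.91 and 0.26. All 7 macrophage markers stayed higher without it, with a median of 0.27 against 0.34 with it. The part of these cells in the Inhbb level was not tested.

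The ratio of Inhbb to Inhba within a library, per length of exon, does not depend on the scaling between libraries. It was 1.23, 1.15 and 1.20 in controls 1, 2 and 3 and 1.25, 1.69 and 2.27 in mutants 1, 2 and 3. The controls lay within a narrow range, mutant replicate 1 lay just above it, and the other two mutants lay well above it. The mean ratio in the mutants was 1.46 times that in the controls (exact permutation test, two-sided p = 0.1, adjusted p = 0.4 over the 6 ratios computed). Leaving out each library in turn gave 1.23 to 1.66 times. The α subunit was scarce, with Inha at 2.43 ± 0.339 CPM across controls and 3.37 ± 0.356 CPM across mutants. It also lay higher in every mutant, as did 4.04% of all genes, with a log2 fold change of 0.47 (SE 0.25).

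The sequences just upstream of both activin subunit genes are shown because theirs was the ratio, among those computed, whose groups did not overlap. RefSeq promoters on GRCm38 were matched for 7 of the 10 ligands. The 250 bases before the annotated start were searched on both strands for the TATA box (TATAAA), the GC box (GGGCGG), the GC-rich Smad element (GGCGCC) and the CCAAT box (CCAAT), which do not overlap one another in these windows. Matches are in capitals. The window of Inhbb is chr1:119422249-119422498 on the minus strand and that of Inhba is chr13:16011601-16011850 on the plus strand, each written 5′ to 3′ on the gene's strand.
Inhbb: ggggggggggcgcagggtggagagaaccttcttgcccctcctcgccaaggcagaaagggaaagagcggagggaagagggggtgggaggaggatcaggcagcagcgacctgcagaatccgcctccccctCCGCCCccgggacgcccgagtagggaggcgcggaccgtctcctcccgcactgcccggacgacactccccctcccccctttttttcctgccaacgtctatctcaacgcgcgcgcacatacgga
Inhba: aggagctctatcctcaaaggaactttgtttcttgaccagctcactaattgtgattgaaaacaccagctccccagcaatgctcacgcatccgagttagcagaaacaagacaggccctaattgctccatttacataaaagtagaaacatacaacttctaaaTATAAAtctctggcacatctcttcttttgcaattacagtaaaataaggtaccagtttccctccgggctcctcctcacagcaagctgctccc
The window of Inhbb held 21 CpG dinucleotides, a GC content of 68% and 1 GC box, a motif found in 32.7% of 32851 promoters. That of Inhba held 3 CpG dinucleotides, a GC content of 43.2% and 1 TATA box, found in 12.4% of promoters. Of the 7 matched ligands, 4 had a GC box (Bmp4, Bmp6, Gdf10 and Inhbb), 1 had a TATA box (Inhba), 1 had a CCAAT box (Bmp10; 33.8% of promoters) and 0 had the Smad element (9.59% of promoters). These matches describe letters in a window and were not tested for function.

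Levels can be compared between genes only per length, for which RPKM (CPM per kilobase of the union of annotated exons) was used. Averaged over the 6 libraries Bmp6 and Bmp4 came first, at 29.5 ± 14.9 and 29.0 ± 15.2 RPKM (SD, n = 6). They were followed by Inhbb at 15.5 ± 5.89, Gdf10 at 12.4 ± 4.87, Inhba at 10.6 ± 2.50 and Bmp2 at 7.30 ± 1.25 RPKM (SD, n = 6). Gdf6 at 1.06 ± 1.52, Bmp5 at 0.944 ± 0.485 and Bmp7 at 0.337 ± 0.239 RPKM (SD, n = 6) made up a low group. Bmp6 lay above 87.6% and Bmp7 above 11.9% of all genes tested. Neighbours in this order were not always distinct. Bmp6 exceeded Bmp4 in 3 of 6 libraries, Bmp4 exceeded Inhbb in 4 of 6, Inhbb exceeded Gdf10 in 5 of 6, Bmp5 exceeded Bmp7 in 5 of 6, Gdf10 exceeded Inhba in 3 of 6, and Gdf6 exceeded Bmp5 only in control replicate 2. The steps that held in all 6 libraries were from Inhba to Bmp2, by 1.45 times, from Bmp2 to Gdf6, by 6.92 times, and from Bmp7 to Bmp10. The step from Bmp2 to Gdf6 was 1.55 times within control replicate 2 and 17.0 times over the means of the other libraries. The order of the group means differed, though the within-library ratio of Bmp6 to Bmp4 had overlapping groups. In the controls Bmp6 and Bmp4 averaged 38.9 ± 16.4 and 36.6 ± 19.9 RPKM, well above Inhbb at 11.6 ± 0.917 RPKM (SD, n = 3). Control replicate 2 stood highest, at 55.7 RPKM for Bmp6 and 59.4 RPKM for Bmp4. In controls 1 and 3 Bmp6 stood at 23.0 and 38.0 RPKM and Bmp4 at 22.7 and 27.6 RPKM. The mutant means of Bmp4, Bmp6 and Inhbb lay close together, at 21.5 ± 2.63, 20.0 ± 4.62 and 19.4 ± 6.38 RPKM (SD, n = 3). In mutant replicate 1, however, Inhbb stood at 13.3 RPKM, below Bmp4 at 22.0 and Bmp6 at 23.3 RPKM. Inhbb was the highest of all 10 in mutant replicate 2 and, by little, in mutant replicate 3. Without control replicate 2 the means over the other libraries were 24.2 RPKM for Bmp6, 23.0 RPKM for Bmp4 and 16.5 RPKM for Inhbb, while Inhba then stood above Gdf10 and Bmp5 above Gdf6.

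As shares of the summed RPKM of the 10 ligands, the pairs of members below separated by group. Bmp4 and Bmp6 together made up 52.6%, 68.4% and 60.9% of the sum in controls 1, 2 and 3 and 51.3%, 42.9% and 41.1% in mutants 1, 2 and 3. Inhba and Inhbb together made up 24.5%, 11.8% and 21.2% in the controls and 27.1%, 38.7% and 33.3% in the mutants. Both pairs were grouped after their values were seen, and the separation of the groups is a description that was not tested. Shares of a single sum are not independent, since a higher share of some members lowers that of the others. Control replicate 1 and mutant replicate 1 differed by little in both. Of the 7 smooth muscle markers 0 were called. By fitted values 6 were lower in the mutants and Des was higher, with a median log2 fold change of -0.87, which was -0.38 with control replicate 2 left out, where Des was lower as well, and 3 (Myh11, Tagln and Smtn) lay lower in every mutant, against 4.83% of all genes. Their sums were 7809, 14138 and 6969 CPM in the controls and 3855, 6539 and 7113 CPM in the mutants, with overlapping groups and none of the markers at 0. All 6 mesothelial and epicardial and all 6 adipocyte markers had lower fitted values too, with medians of -0.74 and -0.44 and 0 called. With control replicate 2 left out these medians were 0.80 and 0.0080. Of the 5 osteoblast markers tested, 4 were lower and 1 was higher, with a median of -0.41 and 0 called. Without that library all 5 were lower, with a median of -0.51. The part of these tissues in the shares was not tested. The sum itself was 86.7, 168 and 108 RPKM in the controls and 88.2, 107 and 81.3 RPKM in the mutants, with overlapping groups.

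**Figure D3:**
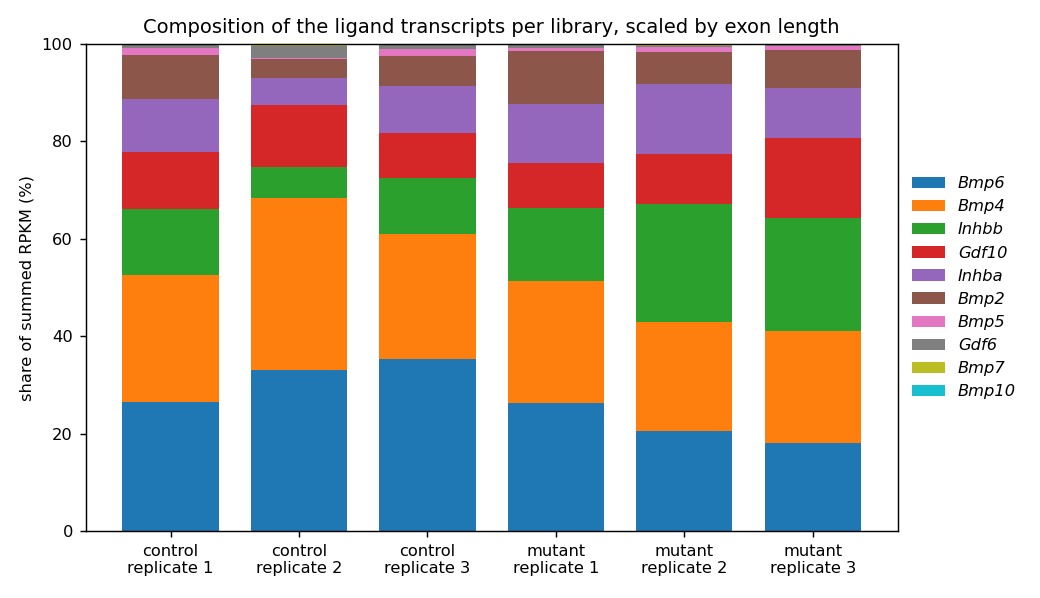
Share of each ligand in the summed RPKM of the 10 ligands (vertical axis, percent) in each library, as stacked bars. The part of Bmp4 and Bmp6 at the bottom spans 52.6% to 68.4% in the controls and 41.1% to 51.3% in the mutants, and the share of Inhbb is highest in mutant replicates 2 and 3.

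By the pattern over the 6 libraries, the genes most like Bmp6, the ligand with the highest mean over all libraries (1.01 times that of Bmp4), were Tm6sf1, Trpc1 and Slc39a4, with Pearson correlations of log2 CPM of 0.995, 0.987 and 0.981. For Gdf6, the ligand with the widest range, they were Bcr, Elovl7 and Chsy3, with 0.993, 0.989 and 0.986. With 6 points and 15353 genes compared, 37 genes had a correlation above 0.95 with Bmp6 and 47 with Gdf6, and these values are a description.

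Among the receptors, the 16 genes listed had 15 tested, of which 0 were called in either direction, and their median log2 fold change was -0.0098. The type I receptors Acvr1 and Bmpr1a, at 59.0 ± 9.21 and 156 ± 37.5 CPM across controls, were at 54.7 ± 4.28 and 155 ± 17.1 CPM across mutants. Without control replicate 2, every mutant lay above both remaining controls in Bmpr1a, with a log2 fold change of 0.21, as did 8.37% of all genes. Acvrl1, the receptor for Bmp10, was at 74.8 ± 18.5 and 65.6 ± 9.52 CPM (SD, n = 3). Bmpr1b was low in all libraries except control replicate 2, which stood at 14.04 CPM against 2.05 to 5.29 CPM elsewhere, and its log2 fold change of -1.06 (SE 0.60) was -0.20 without that library and -0.47 with the cardiac covariate. Acvr1b, a type I receptor of activins, was read at only 0.927 to 2.01 CPM. The type II receptors Acvr2a, Acvr2b and Bmpr2 had overlapping groups, with log2 fold changes of -0.04, 0.20 and -0.14. The co-receptor Tgfbr3, known as betaglycan, which helps inhibin to oppose activin, was the 1 of the 15 whose groups did not overlap (4.83% of all genes lay lower and 4.04% higher in every mutant), at 124 ± 15.3 CPM across controls and 101 ± 6.99 CPM across mutants. Its log2 fold change was -0.30 (SE 0.12) and -0.19 without control replicate 2.

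Of the 18 secreted antagonists and modulators, 16 were tested and 0 were called, as over all genes (0%). In 0 did the groups separate, against 4.04% of all genes higher and 4.83% lower. Their median log2 fold change was -0.18, with 4 higher and 12 lower in the mutants. These counts turned without control replicate 2, to 11 higher and 5 lower with a median of 0.059, and again 0 were called. Follistatin (Fst), which binds activins tightly, was read at 15.2, 26.1 and 24.2 CPM in controls 1, 2 and 3 and at 56.9, 36.5 and 23.8 CPM in mutants 1, 2 and 3. A pair of mutants lay above all controls and mutant replicate 3 lay among them. The log2 fold change of Fst was 0.84 (SE 0.34, 95% interval 0.03 to 1.65, unadjusted p of 0.0431 in edgeR), with 0.47 once mutant replicate 1 was left out and 1.10 once mutant replicate 3 was. Its relative Fstl3 lay between 22.9 and 35.9 CPM in the controls and between 16.2 and 34.0 CPM in the mutants. Per length of exon, the ratio of Fst to Inhba was 0.490 ± 0.133 across controls and 0.771 ± 0.349 across mutants, with overlapping groups. Noggin (Nog), which blocks BMPs, was read at 1.29 to 2.85 CPM in all 6 libraries. Gremlin 1 (Grem1), another BMP antagonist, was listed with 0 counts in every library.

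Other ligands of the superfamily numbered 23, of which 17 were tested and 0 called, with a median log2 fold change of -0.0070. In 2 of them every mutant lay above every control, against 4.04% of all genes, and in 2 every mutant lay below, against 4.83%. The median was 0.023 without control replicate 2. Every mutant then lay above both remaining controls in 3 of them, against 8.37% of all genes, and below in 2, against 8.43%. Tgfb3, the most abundant TGF-β ligand here, was read at 289 ± 59.3 CPM across controls and 209 ± 34.9 CPM across mutants, a log2 fold change of -0.47 (SE 0.19), and -0.30 without control replicate 2. Lefty1, an extracellular inhibitor of Nodal, was at 9.93 ± 0.457 CPM across controls and 7.70 ± 1.04 CPM across mutants. Of the 7 proteases that process ligands or free them from antagonists, 6 were tested and 0 called, with a median of 0.0085, which was 0.20 without control replicate 2. Pcsk7, a proprotein convertase, lay higher in every mutant (against 4.04% of all genes), at 36.1 ± 1.90 CPM across controls and 40.9 ± 1.47 CPM across mutants, a log2 fold change of 0.18 (SE 0.09).

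Downstream of the receptors, 8 Smads were tested and 0 called, with a median log2 fold change of -0.0016, or 0.032 without control replicate 2. In 3 of them every mutant lay below every control, against 4.83% of all genes. Smad1, which carries the BMP signal, was read at 96.9, 117 and 104 CPM in controls 1, 2 and 3 and at 72.1, 88.6 and 76.4 CPM in mutants 1, 2 and 3, so that the lowest control lay above the highest mutant by less than either group's own range. Its log2 fold change was -0.43 (SE 0.12, unadjusted p of 0.00961 in edgeR), and the fits that each left out a library ran from -0.52 to -0.34. Smad3, which carries activin and TGF-β signals, was at 42.1 ± 1.78 CPM across controls and 33.7 ± 6.59 CPM across mutants. Smad4, the partner of both, was at 142 ± 17.6 and 121 ± 6.76 CPM (SD, n = 3), with a log2 fold change of -0.22 (SE 0.12) that was -0.11 without control replicate 2. Of the inhibitory Smads, Smad7 was at 113 ± 11.7 CPM across controls and 111 ± 11.5 CPM across mutants. Smad6 was read at 259, 293 and 218 CPM in the controls and 366, 383 and 283 CPM in the mutants, and the fit gave 0.42 on the log2 scale (SE 0.17, unadjusted p of 0.0434 in edgeR). The groups overlapped through control replicate 2, without which every mutant lay above both remaining controls (as in 8.37% of all genes) and the log2 fold change was 0.53 (SE 0.17). All 15 BMP target genes listed were tested and 0 were called, with 8 higher and 7 lower and a median log2 fold change of 0.013. Id1 and Id3, direct targets of the BMP Smads, were at 137 ± 19.6 and 647 ± 33.8 CPM across controls and at 146 ± 36.4 and 653 ± 92.9 CPM across mutants.

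**Figure D4:**
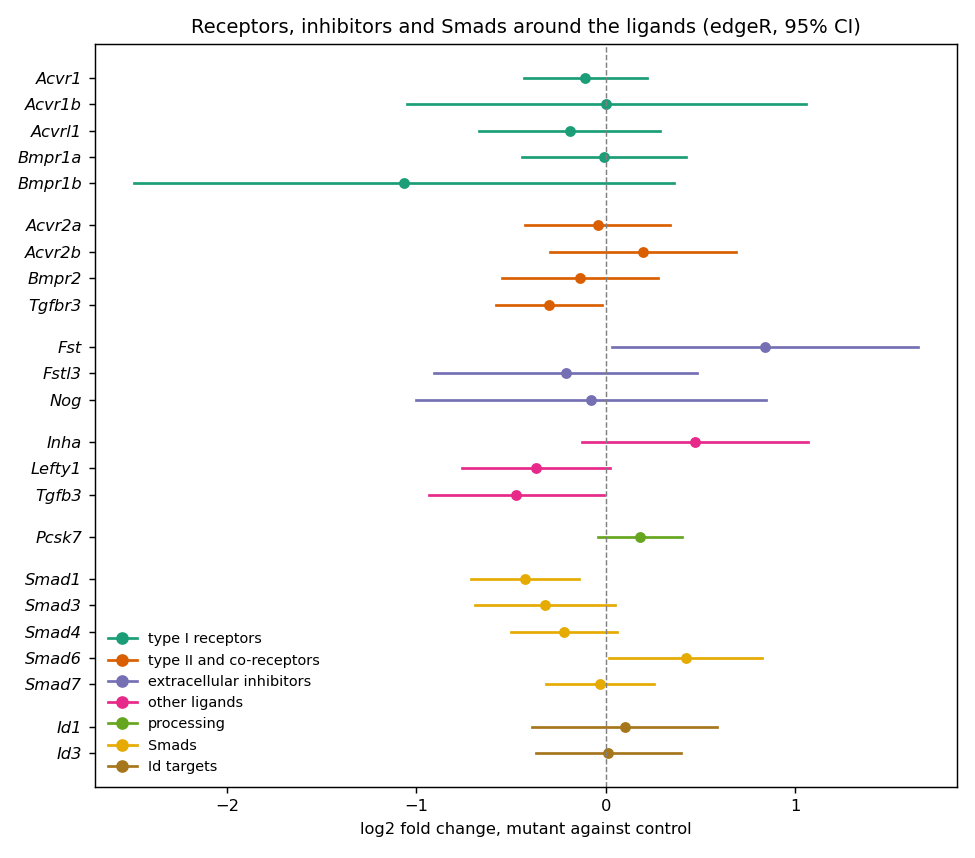
Log2 fold change, mutant against control, from edgeR (horizontal axis; points with 95% confidence intervals as lines) of 23 receptors, inhibitors, other ligands, processing enzymes, Smads and Id genes, coloured by role. The intervals of Fst and Smad6 lie just above 0 and those of Smad1, Tgfbr3 and Tgfb3 lie below it, before adjustment over all genes, after which 0 genes were called.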

How the data were processed

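Aortic valve RNA of 3 control and 3 mutant mouse libraries was sequenced by the authors on an Illumina HiSeq instrument. Per the labels and the study's methods, reads were aligned to mm10 with TopHat2 2.0.13 and Bowtie2, and genes were quantified with Cufflinks and Cuffdiff 2.1.1. The deposited values are estimated counts, fragments assigned to each gene and not scaled for library size. Between 1.66% and 1.87% of them per library were not whole and were rounded. Each column was matched to its sample by the sample description.

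The members and gene lists were chosen with earlier results of these data known. The 15354 genes that reached 10 counts in 3 or more libraries were compared in R 4.3.3 with edgeR 4.0.16 (TMM, quasi-likelihood F test, two-sided, no covariates) and adjusted by the Benjamini-Hochberg method over all of them, with a threshold of 0.05. Standard errors are the fold change over the square root of F. The common biological coefficient of variation was 0.278. Exon lengths and positions came from GENCODE M21 on GRCm38 (97.8% of 23107 genes matched by symbol), and promoters from RefSeq on GRCm38. The pipeline was tested on simulated data. Log2 CPM used a prior count of 1. The named genes are the 10 ligands, 17 fixed partners, and in each pathway list up to 3 genes with the smallest unadjusted p among those with groups that do not overlap. For patterns, the 3 genes with the highest correlation were computed for each ligand. Alternatives were DESeq2 1.42.0, RLE and upper-quartile normalization, no filter, a mean count of at least 100, limma-voom 3.58.1 with quality weights per library, a block for replicate number, a covariate for the cardiac muscle markers, longest transcripts as lengths, and leaving out each library.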

Additional observations from a re-analysis of the deposited data

How the results depend on the processing

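Under each alternative fit 0 ligands were called, and DESeq2 called 26 genes against 0 in edgeR. Of the refitted ligand fold changes, 4 reversed, each with 1 library left out, and 121 kept their direction and their side of the threshold. The ranges over the 6 fits that leave out 1 library were -0.075 to 0.24 for Bmp2, -0.79 to 0.11 for Bmp5, -0.56 to 0.11 for Gdf10 and -0.041 to 0.42 for Inhba. In the same fits the number of ligands lower in every mutant ran from 0 to 3 (8.43% to 10.4% of all genes) and the number higher in every mutant from 1 to 2 (7.90% to 9.89% of all genes), alternatives chosen after seeing the data, as were the counts over pathway and marker lists and the level orders without control replicate 2. Among the partner genes, 8 changed sign under some alternative. Of these Bmpr1a turned to 0.00047 with upper-quartile normalization, 0.11 with limma-voom, 0.011 with the replicate block and 0.12 with the cardiac covariate. Acvr1b turned to -0.0019 with DESeq2, -0.00098 with no filter and -0.0033 with the replicate block. Nog turned to 0.087 with limma-voom and 0.11 with the cardiac covariate, and Smad7 to 0.0013 with the latter. Leaving out 1 library gave -0.13 to 0.21 for Bmpr1a, -0.23 to 0.051 for Acvr2a, -0.26 to 0.26 for Acvr1b, -0.24 to 0.27 for Nog, -0.53 to 0.012 for Fstl3, -0.12 to 0.053 for Smad7, -0.053 to 0.29 for Id1 and -0.072 to 0.12 for Id3. The cause was not tested. Same-numbered control and mutant libraries correlated at 0.271, 0.0654 and 0.0345 in their deviations from the group means. Differently numbered ones correlated at -0.251 to 0.190. With so few libraries these values cannot decide whether the numbers mark pairs, and the main fit did not treat them as pairs. With the replicate block 0 genes were called, and Inhbb was at 0.69, Bmp6 at -0.90 and Gdf6 at -1.81. Depth limits Bmp10 and, at 18 to 164 counts, Bmp7.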
